A study of Homo sapiens with 8 samples.

Results

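The genes described here are 9 members of the insulin-like growth factor (IGF) axis: the binding proteins IGFBP2, IGFBP3, IGFBP4, IGFBP5, IGFBP6 and IGFBP7, the ligands IGF1 and IGF2, and the receptor IGF2R. They were taken by symbol from the 54174 symbols of the deposited expression table. The samples were 4 control libraries, from the established human osteosarcoma line 143B 48 h after transfection with a vector plasmid, and 4 knockout libraries, from 143B cells given a plasmid that the labels assign to NELL1 knockout and harvested at the same 48 h. Both groups were grown in the same serum-containing medium and transfected transiently with the same reagent. The labels name no selection step and no clone, and they do not say whether the replicates came from separate cultures, so p-values measure only the spread between these libraries, which may be technical.

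IGF1 and IGF2 are small secreted proteins related to insulin that signal growth and survival through the receptor tyrosine kinase IGF1R. In fluids and matrix they are held by IGF-binding proteins, which carry the ligands, keep them from the receptor or release them when a protease cuts the binding protein. IGF2R, also known as the cation-independent mannose 6-phosphate receptor, takes up IGF2 for degradation and sorts lysosomal enzymes. Bone cells make several of these proteins and store them in bone matrix.

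Of the 9 genes, IGFBP3 and IGFBP7 were called lower in the knockout libraries, by 1.89-fold and 1.76-fold. IGFBP2, IGFBP4, IGFBP6, IGF2 and IGF2R were tested and not called. IGFBP5 lay below the level needed for the test, and IGF1 was blank in every library. IGFBP4, IGFBP5 and IGF2 differed between groups by at most 0.13 on the log2 scale, but knockout libraries 1 and 2 lay on one side of their same-numbered controls and knockout libraries 3 and 4 on the other. Values are the deposited logarithms, read as base 2 from their range, and the folds rest on that reading. Their unit before the logarithm is not given, so levels are compared between libraries for each gene and not between genes. Testing was limited to genes with no blank cell whose log2 values averaged at least 1. It was called at an adjusted p-value under 0.05 (limma, a linear model fitted across all 9016 tested genes, with Benjamini-Hochberg adjustment). With this rule 2 of the 7 tested members were called, against 13.1% of all tested genes, and both were lower, against 6.1% of all tested genes. The median log2 difference was -0.01 over the 7 members and 0.01 over all tested genes.

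The libraries did not form a single cluster for each group. Across tested genes, the SD of the difference was 0.12 between knockout libraries 1 and 2 and 0.13 between knockout libraries 3 and 4, but 0.46 to 0.50 between these pairs. It was 0.10 to 0.29 within the controls and 0.355 to 0.454 between control and knockout libraries. The 2 knockout pairs thus lay farther from each other than any knockout library lay from any control. NELL1 itself was near the bottom of the measured range, at log2 values of -6.97, -6.97, -4.53 and -5.00 in controls 1 to 4 and -4.82, -5.87 and -6.96 in knockouts 1, 2 and 4, with a blank in knockout 3. At these low values it was above the same-numbered controls in knockouts 1 and 2 and below in knockout 4. Whether this knockout lowers the transcript was not tested, so the NELL1 transcript did not check the labels. Control and knockout libraries are named throughout as they are labelled. Of 9 osteoblast lineage markers, SP7 and IBSP were blank in every library and only SPARC and SPP1 passed the level filter. SPARC was called higher in the knockouts (log2 difference 0.62, limma adjusted p = 0.0294), and its part in the results was not tested. SPP1 was not called (log2 difference 0.45), and its groups overlapped. RUNX2, ALPL and COL1A1, measured in every library but below the filter, had log2 differences of 0.04, -0.14 and -0.22. Of the leukocyte markers, PTPRC and CD3E were blank in every library, whereas CD14 had low log2 values of -4.90 to -4.22 in the controls, was blank in knockout libraries 1 and 2 and had -2.67 and -2.94 in knockout libraries 3 and 4. Its part in the results was not tested. The endothelial markers were all below the level filter. Of the epithelial markers, EPCAM was not called over all libraries (limma adjusted p = 0.345). It was 2.38 to 2.75 in the controls and 2.55, 2.76, 1.83 and 1.94 in knockout libraries 1 to 4. CLDN4 averaged -3.05, below the level filter. It was -3.00 to -2.44 in the controls and -2.61, -2.44, -4.47 and -4.05 in knockout libraries 1 to 4. Both markers were thus below every control in knockout libraries 3 and 4, and their part in the results was not tested. CDH1 had values only in control libraries 2 and 3, at -7.49 and -7.40. Sequencing depth is unknown because the table holds no counts.

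IGFBP3 encodes the main carrier of IGFs in serum and is also made by many cultured cells. The gene lies on the minus strand of chromosome 7 (GRCh38.p14, 45912245 to 45921272). Control libraries 1 to 4 had log2 values of 6.03, 6.07, 4.98 and 5.75, and knockout libraries 1 to 4 had 5.01, 5.06, 4.52 and 4.56. Control library 3 stood below the other controls and just under knockout libraries 1 and 2, so the groups overlapped through that library alone. Controls averaged 5.71 ± 0.51 and knockouts 4.79 ± 0.29 (SD, n = 4 each). The log2 difference of -0.92 ± 0.25 (SE) passed the threshold with a limma adjusted p of 0.0441, and its 95% interval ran from -1.48 to -0.36. Each knockout library was lower than its same-numbered control, with log2 differences of -1.02 in replicates 1-2 and -0.82 in replicates 3-4. Without control library 3 it was -1.16 (limma adjusted p = 0.00722). The call was lost without any one of the 7 other libraries, with limma adjusted p-values of 0.0540 to 0.126, and an exact two-sided permutation test of the 8 values gave p = 0.0857.

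IGFBP7 encodes a secreted protein of the same family that binds IGFs weakly and also binds insulin, and it is deposited in matrix and around vessels. The gene lies on the minus strand of chromosome 4 (57030773 to 57110385). Log2 values of IGFBP7 were 5.72, 5.83, 6.16 and 5.92 in the 4 controls, in replicate order, and 4.64, 4.68, 5.56 and 5.48 in the knockouts. It was the only one of the 7 tested members whose groups did not overlap, against 22.9% of all tested genes. Controls averaged 5.91 ± 0.19 and knockouts 5.09 ± 0.50 (SD, n = 4 each). The log2 difference was -0.82 ± 0.23 (SE; 95% interval -1.34 to -0.30), with a limma adjusted p of 0.0490 and an exact two-sided permutation p of 0.0286, the smallest that 4 against 4 allows. A difference of at least this size in either direction was reached by 1.59% of tested genes. In replicates 1 and 2 its log2 difference was -1.12, against -0.52 in replicates 3 and 4, and whether these sizes differ was not tested. In GENCODE the locus overlaps, on the opposite strand, the antisense gene IGFBP7-AS1, blank in every library, and the protein-coding gene POLR2B. Whether counting used strand is not given in the sources used here. Its call was lost without any one control library or without knockout library 1 or 2 (limma adjusted p from 0.0881 to 0.124) and was kept without knockout library 3 (0.0356) or 4 (0.0409). With each close pair of knockout libraries averaged into a single value, neither gene passed the threshold, with limma adjusted p-values of 0.172 for IGFBP3 and 0.134 for IGFBP7, where 1.2% of tested genes were called.

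**Figure D1:**
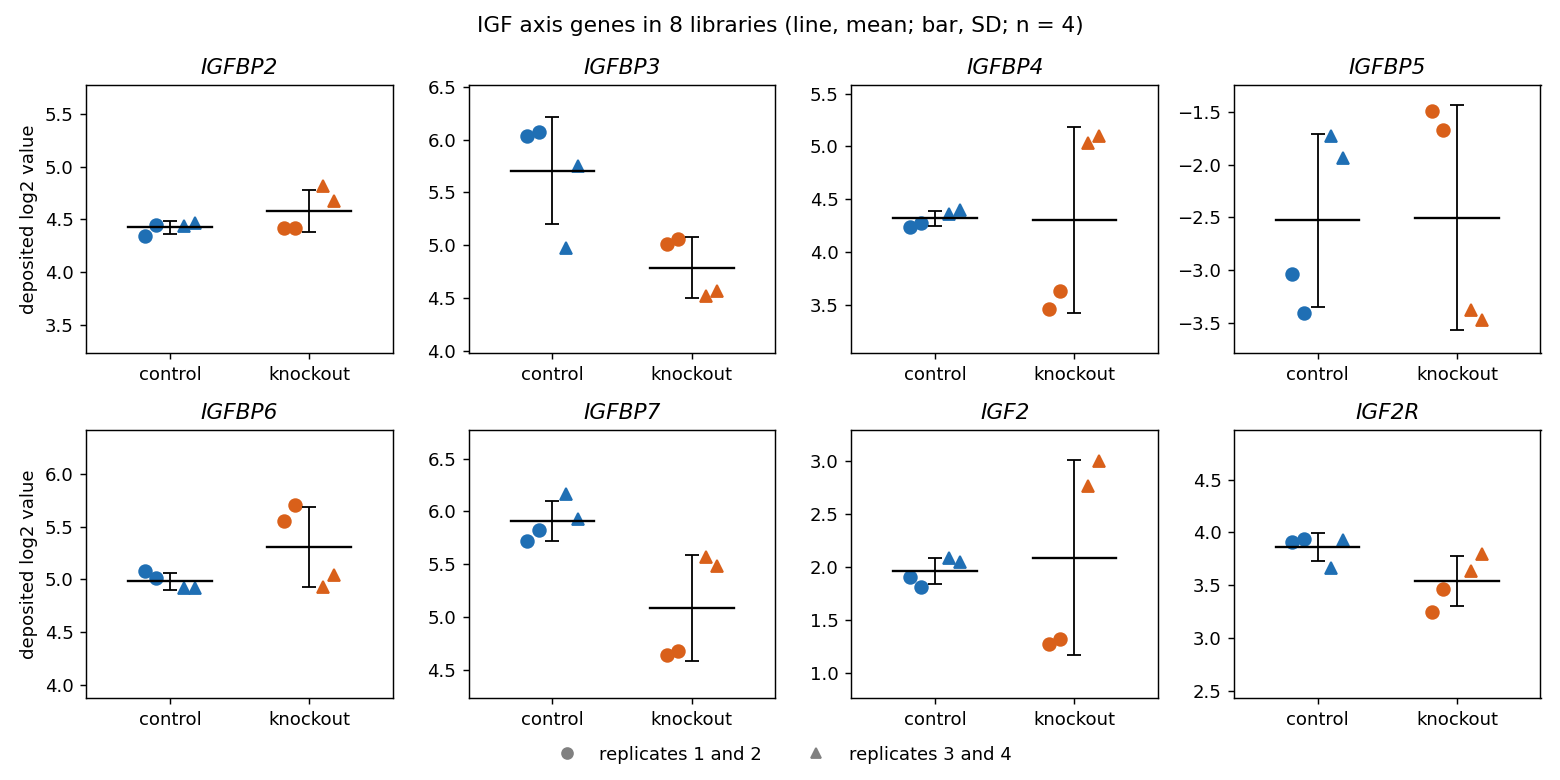
Deposited log2 values of the 8 measured IGF axis genes (vertical axis, with the same span in each panel) in control and knockout libraries, with circles for replicates 1 and 2, triangles for replicates 3 and 4, lines for group means and bars for SD (n = 4). IGFBP3 and IGFBP7 were lower in the knockouts, whereas IGFBP4 and IGF2 had knockout values on both sides of tightly grouped controls.

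IGFBP4 encodes a binding protein that mostly restrains IGF action until the protease pappalysin cleaves it. The gene lies on the plus strand of chromosome 17 (40443450 to 40457725). Its 4 control log2 values, 4.24, 4.27, 4.36 and 4.39, were close together. The knockout values were 3.46 and 3.63 in libraries 1 and 2 and 5.04 and 5.10 in libraries 3 and 4. Both members of the first pair were thus below every control and both members of the second pair above every control. The mean difference over 8 libraries was -0.01 ± 0.37 (SE; 95% interval -0.86 to 0.83; limma adjusted p = 0.987). It was -0.71 in replicates 1 and 2 (limma adjusted p = 3.82e-04) and 0.69 in replicates 3 and 4 (limma adjusted p = 0.00119), each fitted to 2 knockout and 2 control libraries. The residual variance of such fits comes only from the close pairs, and the sets were recognised from expression in these same libraries. Such fits called 59.7% of all tested genes in replicates 1 and 2 and 33.1% in replicates 3 and 4. Adjusted p-values within a set, here and below, carry these limits.

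IGFBP6 encodes a binding protein with a preference for IGF2. The gene lies on the plus strand of chromosome 12 (53097667 to 53102340). The controls had log2 values of 5.08, 5.01, 4.91 and 4.91 in replicate order, and the knockouts 5.55, 5.70, 4.93 and 5.04. Knockout libraries 1 and 2 were above every control and knockout libraries 3 and 4 were inside the control range. The log2 difference over all libraries was 0.32 ± 0.17 (SE; 95% interval -0.06 to 0.71; limma adjusted p = 0.238). In replicates 1 and 2 it was 0.58 (limma adjusted p = 6.86e-04), opposite in sign to that of IGFBP4 in the same libraries, and in replicates 3 and 4 it was 0.07 (limma adjusted p = 0.557).

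The 250 bases before the RefSeq gene start are shown for IGFBP3, which was called over all libraries, and for IGFBP4 and IGFBP6, whose differences in replicates 1 and 2 had opposite signs. Each is written 5′ to 3′ on the gene's strand (RefSeq, GRCh38.p14), and capitals mark GC boxes (GGGCGG or its reverse complement CCGCCC) and the TATA box (TATAAA or TTTATA).
IGFBP3 promoter, chr7:45921273-45921522, minus strand: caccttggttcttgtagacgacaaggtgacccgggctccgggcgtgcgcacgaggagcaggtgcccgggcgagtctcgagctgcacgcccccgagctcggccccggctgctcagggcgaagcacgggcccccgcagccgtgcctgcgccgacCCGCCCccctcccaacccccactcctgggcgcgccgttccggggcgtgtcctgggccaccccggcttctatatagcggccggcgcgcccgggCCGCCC
IGFBP4 promoter, chr17:40443200-40443449, plus strand: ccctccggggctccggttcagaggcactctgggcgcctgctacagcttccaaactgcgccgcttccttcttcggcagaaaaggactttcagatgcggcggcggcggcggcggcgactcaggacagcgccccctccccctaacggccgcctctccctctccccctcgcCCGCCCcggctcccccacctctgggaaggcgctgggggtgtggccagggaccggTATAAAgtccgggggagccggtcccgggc
IGFBP6 promoter, chr12:53097417-53097666, plus strand: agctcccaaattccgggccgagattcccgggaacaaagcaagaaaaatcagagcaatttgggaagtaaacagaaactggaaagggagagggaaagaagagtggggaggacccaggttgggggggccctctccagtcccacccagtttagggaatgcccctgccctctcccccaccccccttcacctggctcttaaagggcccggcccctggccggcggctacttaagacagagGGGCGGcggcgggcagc
Both strands were searched. The IGFBP3 window held 2 GC boxes, and the windows of IGFBP4 and IGFBP6 held 1 each, a motif found in 42.6% of the 35116 RefSeq promoter windows of this length. IGFBP4 also held a TATA box, found in 10.7% of windows. Neither the AP-1 motif TGANTCA (6.6% of windows) nor CCAAT or its reverse complement ATTGG (32.0%) was found in these 3 windows. A match of letters is a description of the window and not evidence of binding.

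IGFBP2 encodes a binding protein common in embryonic tissue and in many tumours. It is on the plus strand of chromosome 2 (216632828 to 216664436). In replicate order, the controls had log2 values of 4.34, 4.45, 4.44 and 4.47 and the knockouts 4.42, 4.42, 4.82 and 4.67. The SD among controls was 0.06 and among knockouts 0.20 (n = 4 each), with knockout libraries 1 and 2 inside the control range and libraries 3 and 4 above it. The log2 difference was 0.16 ± 0.10 (SE; 95% interval -0.07 to 0.39; limma adjusted p = 0.333) over all libraries, 0.02 in replicates 1-2 and 0.29 in replicates 3-4, where the limma adjusted p was 0.0387.

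IGFBP5, a binding protein known for its abundance in bone matrix, lies 7668 bases from the end of IGFBP2 on the opposite strand. Control libraries 1 to 4 had log2 values of -3.03, -3.40, -1.73 and -1.94, and knockout libraries 1 to 4 had -1.50, -1.67, -3.38 and -3.47. The mean of -2.52 over all libraries was below the level filter. Controls 1 and 2 were low and controls 3 and 4 high, and the knockouts had the reverse order, so that control libraries 1 and 2 lay near knockout libraries 3 and 4. The log2 difference was 1.63 in replicates 1 and 2, -1.59 in replicates 3 and 4 and 0.02 over all libraries (exact two-sided permutation test, p = 0.914). In the limma fit with no level filter, over 13943 genes of which 8.3% were called, its adjusted p was 0.985. IGFBP2 and IGFBP5 are neighbours in the genome and did not share this pattern.

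Of the ligands, only IGF2 had values. IGF1 was blank in all 8 libraries, which says only that the table lists no value. IGF2, which encodes a growth factor abundant in foetal tissue and bone, lies on the minus strand of chromosome 11 (2129117 to 2149566). The 4 controls were at log2 values of 1.91, 1.81, 2.08 and 2.04, and the knockouts at 1.27, 1.32, 2.77 and 3.00, in replicate order. As for IGFBP4, knockout libraries 1 and 2 were below every control and knockout libraries 3 and 4 above every control. The log2 difference over all libraries was 0.13 ± 0.39 (SE; 95% interval -0.76 to 1.02; limma adjusted p = 0.863). It was -0.57 in replicates 1 and 2 (limma adjusted p = 3.89e-04) and 0.82 in replicates 3 and 4 (limma adjusted p = 0.00125). The overlapping genes INS-IGF2, on the same strand, and IGF2-AS, on the other strand, were blank in every library, as was the imprinted neighbour H19. The counting rule for overlapping genes is not given in the sources used here, so reads of INS-IGF2 and IGF2 could have been assigned to either.

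IGF2R lies on the plus strand of chromosome 6 (159969082 to 160111504). Log2 values of IGF2R were 3.91, 3.93, 3.66 and 3.93 in the controls and 3.25, 3.46, 3.64 and 3.80 in the knockouts, in replicate order. Each knockout library was lower than its same-numbered control, and the groups overlapped because control library 3 was below knockout library 4. The log2 difference of -0.32 ± 0.12 (SE; 95% interval -0.61 to -0.04) did not pass after adjustment (limma adjusted p = 0.123; exact two-sided permutation p = 0.0571). It was -0.57 in replicates 1 and 2 (limma adjusted p = 0.00122) and -0.08 in replicates 3 and 4 (limma adjusted p = 0.643). Without knockout library 4 or without control library 3 the adjusted p remained above the threshold, at 0.0598 and 0.0831 in limma.

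Counted over the members, 6 of 7 were called in replicates 1 and 2 alone, 5 lower and only IGFBP6 higher, where 59.7% of all tested genes were called, 26.6% lower and 33% higher. In replicates 3 and 4 alone 5 of 7 were called, with IGFBP2, IGFBP4 and IGF2 higher and IGFBP3 and IGFBP7 lower, where 33.1% of all tested genes were called, 15.7% higher and 17.4% lower. Of the tested members, 4 were called in both sets. IGFBP3 and IGFBP7 had the same direction in both, as did 14% of tested genes, and IGFBP4 and IGF2 had opposite directions, as did 7.13% of tested genes. Without regard to calls, the differences of 2 of the 7 tested members had opposite signs in the sets, against 43% of all tested genes. The sets were recognised from expression in these same libraries, so the difference between them was not tested for any gene.

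**Figure D2:**
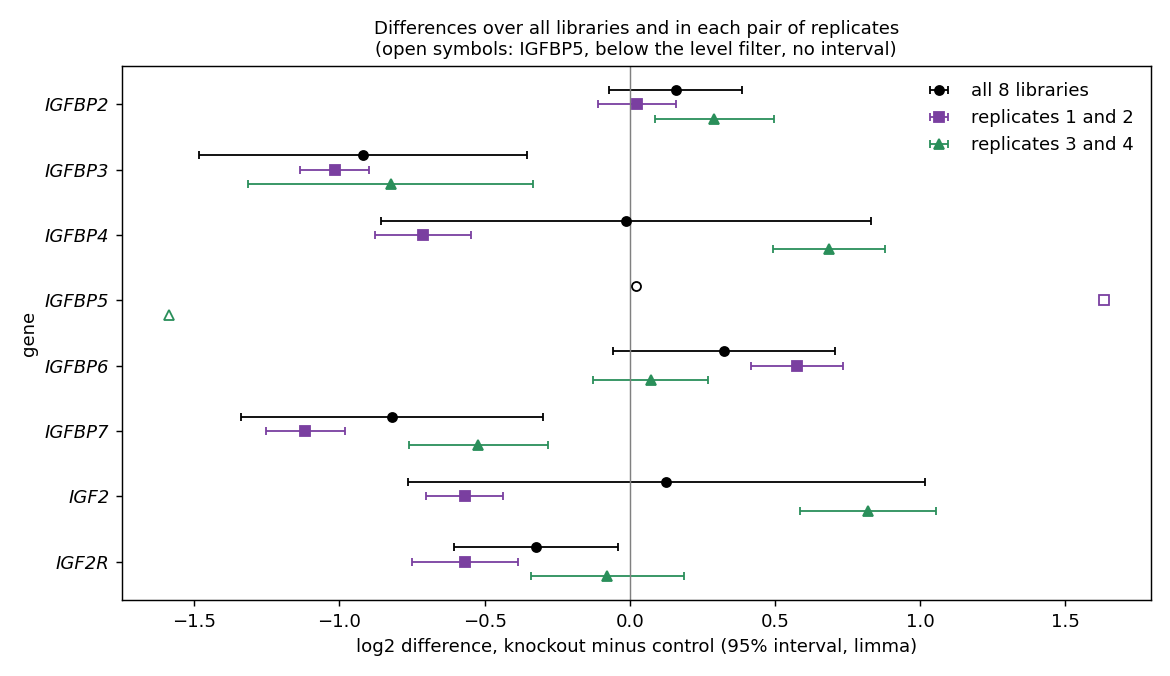
Log2 difference, knockout minus control (horizontal axis), of each measured IGF axis gene over all 8 libraries (black circles), in replicates 1 and 2 (purple squares) and in replicates 3 and 4 (green triangles), with 95% intervals from limma; open symbols without an interval mark IGFBP5, which was below the level filter. IGFBP3 and IGFBP7 lay left of 0 in all 3 comparisons, whereas IGFBP4, IGFBP5 and IGF2 lay on opposite sides of 0 in the separate sets.

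The rest of the IGF pathway was followed in 65 genes written as 7 lists from general knowledge, of which 43 passed the level filter. Of these, 5 were called, 3 higher and 2 lower, which is 11.6% against 13.1% of all tested genes. Their median log2 difference was -0.04. Of 11 receptor and adaptor genes 7 were tested and 1 was called: GRB10, an adaptor that binds the activated insulin and IGF1 receptors and restrains their signalling, was lower, with a log2 difference of -0.58 ± 0.15 (SE; limma adjusted p = 0.0402). It was 3.82 to 3.91 in the controls and 2.92, 3.09, 3.59 and 3.56 in knockout libraries 1 to 4, with no overlap between groups. Leaving out any one control, or knockout library 1 or 2, ended this call (limma adjusted p from 0.0597 to 0.113).

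IGF1R, the receptor for both ligands, was singled out after its values were seen. Control libraries 1 to 4 had log2 values of 2.84, 2.73, 2.72 and 2.85, and knockout libraries 1 to 4 had 2.33, 2.54, 3.70 and 3.75. It therefore had the same order as IGFBP4 and IGF2, with knockout libraries 1 and 2 below and knockout libraries 3 and 4 above all controls. Replicates 1 and 2 gave a log2 difference of -0.35, replicates 3 and 4 one of 0.94, and all libraries one of 0.30 ± 0.32 (SE; limma adjusted p = 0.575). IRS1, the docking protein phosphorylated by this receptor and also singled out after its values were seen, was higher in each knockout library than in its same-numbered control. Its log2 difference of 0.58 was not called without the replicate block (limma adjusted p = 0.108) and was called with it (limma adjusted p = 0.0170), a fit that called 10.2% of tested genes.

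Among 11 proteases of the binding proteins and their inhibitors, 6 were tested and 1 was called. STC1, a secreted glycoprotein that inhibits pappalysins, was lower by a small amount, with a log2 difference of -0.25 ± 0.06 (SE; limma adjusted p = 0.0330). Its control values were 3.39 to 3.50 and its knockout values 3.12 to 3.24, and with the replicate block the limma adjusted p was 0.0798. PRSS23, a serine protease gene of this list singled out after its values were seen, was 4.75 to 5.21 in the controls, 4.02 and 4.17 in knockout libraries 1 and 2, and 5.65 and 5.58 in knockout libraries 3 and 4, the same order as IGFBP4, IGF2 and IGF1R. STC2, another gene of this list and also singled out after its values were seen, was not called and had the reverse order. It was 3.82 to 4.45 in the controls and 4.60, 4.62, 3.12 and 3.24 in knockout libraries 1 to 4. PAPPA and PAPPA2, the pappalysins, were below the level filter. PAPPA, singled out in the same way, had the order of IGFBP4. Its values were 0.21 to 0.48 in the controls and -0.53, -0.37, 0.74 and 0.66 in knockout libraries 1 to 4. PAPPA2, singled out after its values were seen, had log2 values of -1.28 to -0.45 in the controls, -1.80 and -1.47 in knockout libraries 1 and 2, and -4.95 and -4.28 in knockout libraries 3 and 4.

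Of 12 other genes whose proteins carry an IGFBP-type domain 5 were tested, HTRA1 among them, which is also in the protease list. The one called was CCN2, which encodes a matricellular protein. It was 4.84, 4.85, 5.44 and 5.13 in control libraries 1 to 4 and at least 5.80 in each knockout library, with no overlap between groups, opposite in direction to IGFBP3 and IGFBP7. Its log2 difference was 0.81 ± 0.14 (SE; limma adjusted p = 0.00913). CCN2 was the only called gene of the 7 lists whose call was kept when each library was left out in turn, with limma adjusted p-values of 0.00291 to 0.0361. None of the 3 other binding-protein genes was tested. IGFBP1, which lies 18584 bases from IGFBP3 and had a mean just under the filter, was also singled out after its values were seen. It was 1.60, 1.85, 0.26 and 1.50 in control libraries 1 to 4 and 1.12, 1.07, 0.17 and 0.33 in knockout libraries 1 to 4. Control library 3 was the low control for IGFBP1, as it was for IGFBP3.

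Of the mannose 6-phosphate sorting genes 4 of 5 were tested and 1 was called. M6PR, the smaller cation-dependent receptor that shares lysosomal sorting with IGF2R, was higher, at 5.35 to 5.41 in the controls and 5.60 to 5.66 in the knockouts. The log2 difference was 0.24 ± 0.05 (SE; limma adjusted p = 0.0259), at 0.23 in replicates 1-2 and 0.25 in replicates 3-4. With the replicate block the limma adjusted p was 0.0717. None of the 3 tested IGF2BP genes, which encode proteins that bind IGF2 RNA, was called. Of 20 genes of PI3K-AKT-mTOR signalling 19 were tested and only PIK3R1, the regulatory subunit of PI3-kinase, was called. PIK3R1 was higher, with a log2 difference of 0.30 ± 0.08 (SE; limma adjusted p = 0.0424), and with the replicate block the limma adjusted p was 0.0918. Leaving out single libraries ended the calls of STC1 in 7 of 8 fits, of M6PR in 6 of 8 and of PIK3R1 in 6 of 8.

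**Figure D3:**
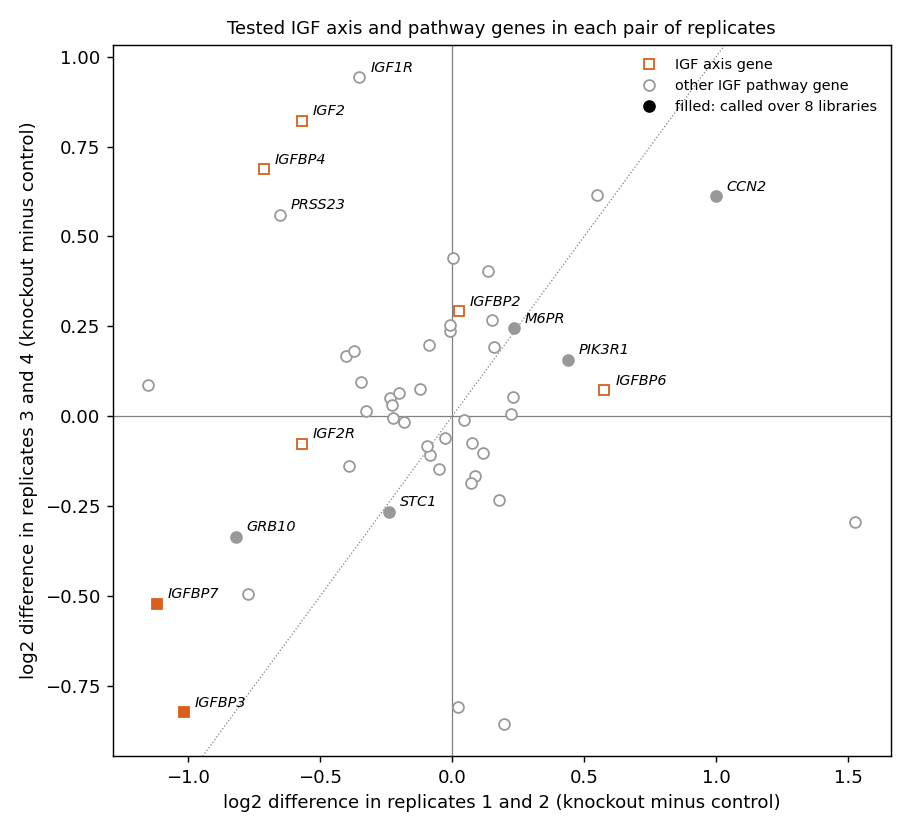
Log2 difference, knockout minus control, in replicates 1 and 2 (horizontal axis) against that in replicates 3 and 4 (vertical axis) for the 7 tested IGF axis genes (orange squares) and 43 other tested IGF pathway genes (grey circles); filled symbols were called over all 8 libraries and the dotted line marks equal differences. IGF2, IGFBP4, IGF1R and the protease gene PRSS23 lie at the upper left, below 0 in one set and above 0 in the other. STC2, which has no label, lies at the lower right, above 0 in replicates 1 and 2 and below 0 in replicates 3 and 4.

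Genes with the most similar pattern were sought for the called members among 3939 tested genes with an SD of at least 0.2 over the 8 libraries. By Pearson's correlation of log2 values over the 8 libraries, IGFBP3 was most like ATRN (r = 0.99), RBMX (0.99) and TEF (0.99). IGFBP7 was most like JARID2, IL10RA and RTN1 (r = 0.99 for each). These are the top of many candidates over few libraries that lie in close pairs, so they describe these libraries only.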

How the data were processed

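RNA from 4 control and 4 knockout samples was extracted with TRIzol and made into stranded total-RNA libraries, per the labels' protocols. GRCh38, bcl2fastq and Partek 7.0 are named in the submitters' processing notes; the aligner, counting program, annotation and filter are not given in the sources used here. The authors deposited 1 log2 value per symbol and library. All libraries have the same quantiles, so the deposited values had been quantile normalized and show changes only relative to the other transcripts. Base 2 was inferred from the range. Depth is unknown. Blank cells were treated as missing.

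Columns were matched to samples by their labels, and groups and replicate numbers came from the titles. The 13943 symbols with a value in all libraries were filtered to a mean of at least 1, which left 9016 genes for limma 3.58.1 in R 4.3.3 (knockout minus control, no covariate, no trend). The fit was tested on simulated data with independent noise in each library. That setting lacks the close pairs of the knockout libraries, so it does not show how the p-values behave with them. Exact permutation tests used scipy 1.17.1. Members, lists and alternatives were chosen with earlier results of these data known. The named genes were the 9 members, the called genes of each list, and for each called member the 3 genes of most similar pattern. Pathway genes chosen after their values were seen are marked as singled out in the text. Other names include NELL1, cell type markers, overlapping or neighbouring genes, and genes called only under an alternative.

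Same-numbered control and knockout libraries deviated together from their group means, with correlations across genes of 0.20 to 0.29. Differently numbered libraries within replicates 1-2 or 3-4 gave 0.11 to 0.31. Only 1 of the 4 knockout libraries correlated best with the control of its own number. The replicate number was therefore not established as a pairing, and the main fit did not use it. Comparisons with same-numbered controls describe the values only. Alternatives were other level filters, a pseudocount, scalings, a variance trend, the replicate block, a term for replicates 1-2 against 3-4, averaged knockout pairs, each set alone and leaving out each library. Coordinates and promoters came from RefSeq (GRCh38.p14), where 7 of the 9 members had a promoter entry, and strands and overlaps from GENCODE.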

Additional observations from a re-analysis of the deposited data

Results flagged for a closer look

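IGFBP4, IGFBP5 and IGF2 were marked because every knockout library moved one way from its controls in replicates 1 and 2 and the opposite way in replicates 3 and 4. The log2 differences were -0.71 and 0.69 for IGFBP4, 1.63 and -1.59 for IGFBP5, and -0.57 and 0.82 for IGF2. The difference between the sets was not tested. Opposite signs in the sets, whatever their size, were found for 43% of all tested genes and 2 of the 7 tested members (IGFBP5 was not tested). The mark asks for more, that the groups do not overlap in either set. The share of all genes that meet it was not counted. Calls in both sets with opposite directions were found for 7.13% of tested genes. The direction of IGFBP5 in each set was opposite to that of IGFBP4 and IGF2.

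For IGF2R the controls held 1 stray library. Control library 3 lay at 3.66 and the others at 3.91 to 3.93, a gap of 0.919 of the range which is above Dixon's 95% critical value for 4 samples. This was 1 of 16 groups examined, and chance marks about 1 in 20.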

How the results depend on the processing

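Of 7 tested members, 2 were called, and 2 were also called with a mean of at least 3, a pseudocount of 1, median centring, a further quantile normalization, a variance trend, the replicate block and the term for replicates 1-2 against 3-4. The count was 0 with no level filter (limma adjusted p = 0.0693 for IGFBP3 and 0.0760 for IGFBP7) and 0 with averaged knockout pairs. It was 6 in replicates 1-2 alone and 5 in replicates 3-4 alone, where 59.7% and 33.1% of all tested genes were called. When each library was left out it was 0 to 1, where 4.34% to 15% of all tested genes were called. Of the 43 tested pathway genes, 5 were called in the main fit. With averaged knockout pairs 0 were called (1.2% of all tested genes). With the term for replicates 1-2 against 3-4 there were 11 (25.2% of all tested genes). In replicates 1-2 alone there were 27 (59.7% of all tested genes) and in replicates 3-4 alone 11 (33.1%). The pathway count was 1 to 4 when each library was left out (4.34% to 15%) and 4 with the replicate block (10.2%). The block ended the calls of STC1, M6PR and PIK3R1, added those of IRS1 and HTRA1 (limma adjusted p = 0.0294), and changed no other call among the genes of the members and pathway lists. With no level filter the calls of GRB10, STC1 and PIK3R1 were lost (limma adjusted p = 0.0646, 0.0547 and 0.0675), and PIK3R1 was also lost with a pseudocount of 1 (0.0574) and with a variance trend (0.0590). In the fit with no level filter, LRP1 (-0.89), IGFBPL1 (0.64) and FOXO1 (0.73) were called, with limma adjusted p-values of 0.0291, 0.0202 and 0.0170.

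Among the tested members and the 5 called pathway genes, directions changed for IGFBP4 and IGF2 only. IGFBP5, which was below the level filter and had opposite directions in the sets, is not counted here. IGFBP4 was 0.69 in replicates 3-4 alone and -0.28 to 0.27 when each library was left out. IGF2 was -0.57 in replicates 1-2 alone and -0.18 to 0.40 when each library was left out. IGFBP3 and IGFBP7 were lower in the knockouts under all 19 alternatives, but IGFBP3 did not pass the threshold in 9 of them and IGFBP7 in 8. The residual variance of the fits within each set comes only from the close pairs. Because depth is unknown, no counting error can be attached to low values such as those of IGFBP5.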
